A study of Mus musculus with 6 samples.

Results

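The transcripts described here encode the enzymes that add uridines to RNA ends and the machinery that makes microRNAs. They are Tut4, Tut7, Lin28a, Lin28b, Dis3l2, Drosha, Dgcr8, Dicer1 and Ago2, and every probe set annotated to 1 of these 9 genes was taken, 26 of the 45037 probe sets that are not controls. The group was chosen on the difference of Tut4 between knockout and wild-type leukemias. Knockout minus wild-type values of the members are therefore given as a description, with a standard error and no test. Of the 26 probe sets, 18 passed a low-value filter at the 40th percentile of mean signal, and 13, from 6 genes, had a mean above 5 over the arrays.

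Both groups were T cell leukemias raised in irradiated C57BL6 recipients from lineage-depleted marrow progenitors of 8-week-old donors. In both groups the progenitors carried MigR1-ΔE-Notch1, a retrovirus with a green fluorescent reporter that expresses an activated NOTCH1 without its extracellular part, so that every sample has forced NOTCH1 signalling. In the wild-type group (n = 3 arrays) the donors were C57BL6, and in the knockout group (n = 3) they were Sh2b3-/-, lacking the adaptor LNK; the labels give no strain for the knockout donors. From each sample 10 ng of RNA was amplified and hybridised to a one-colour mouse expression array. Values are log2 signals, on which a difference of 1 is a doubling, and many probe sets without specific signal lie near 2.

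Uridylation marks RNA for a change of fate. The RNA-binding proteins LIN28A and LIN28B grip the loop of let-7 precursors. LIN28A recruits TUT4 or TUT7, which add a tail of uridines. This tail blocks cutting by Dicer and exposes the precursor to the exonuclease DIS3L2. Without LIN28, the same enzymes can instead add a single uridine that helps some precursors to be cut, and they also tail messenger RNAs with short poly(A) ends. LIN28B is typical of fetal lymphoid progenitors and is low in adult ones.

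The substrate of this pathway is shown by let-7 precursors, because the motif GGAG beside the loop is the site that LIN28 holds. In RefSeq hairpins on GRCm38.p6 (RNA strand only), 9 of 11 let-7 hairpins held GGAG within 4 bases of the mature 3′ arm, and 2 held none. Across all 1005 mouse hairpins in the same table, 44.5% held GGAG anywhere. Capitals mark each GGAG. The first hairpin below has 1, let-7e has a second in its 5′ arm, and let-7b has none.
Mirlet7g (chr9:106178840-106178927, plus strand): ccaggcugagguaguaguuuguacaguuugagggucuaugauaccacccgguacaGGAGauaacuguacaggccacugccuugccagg
Mirlet7e (chr17:17830352-17830444, plus strand): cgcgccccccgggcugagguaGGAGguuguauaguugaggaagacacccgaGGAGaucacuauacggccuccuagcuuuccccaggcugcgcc
Mirlet7b (chr15:85707319-85707403, plus strand): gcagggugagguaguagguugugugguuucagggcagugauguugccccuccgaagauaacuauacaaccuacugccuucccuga
The mature products share their seed, bases 2 to 8, in capitals here.
mmu-let-7g-5p: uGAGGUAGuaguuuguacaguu
mmu-let-7d-5p: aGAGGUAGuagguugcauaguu
The arrays measure long transcripts, so neither the let-7 microRNAs nor their uridine tails were measured.

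Sh2b3 followed the labels: its more intense probe set read 4.25, 4.83 and 4.08 on the wild-type arrays and 2.29, 2.24 and 2.29 on the knockout arrays. T lineage transcripts were strong in all 6 samples: Cd3d read 12.13 to 12.63 and Rag1 11.20 to 12.49. Cd4 was lower and more variable, at 2.23 to 4.63. Wild-type arrays 1 and 2 are much more alike than any other pair, with an SD of their difference of 0.234 over 6724 genes against 0.503 to 0.689. The titles call the arrays biological replicates, while the protocol speaks of triplicate RNA isolation and names no animals. Some of the spread behind the p-values given below for other genes may therefore be technical. Across the whole table, limma called 0 of 12564 genes (0%) and 0 of 26967 probe sets (0%) at an adjusted p under 0.05, with 981 genes at an unadjusted p under 0.05. Sh2b3 itself, with a difference of -2.11, had an adjusted p of 0.158 by limma, equal to the lowest of all genes. A count of 0 called, here or below, therefore does not show that the groups were alike. With 0 calls there were 0 among the 26 member probe sets, and nothing is read from that.

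Tut4, formerly Zcchc11, is the terminal uridylyltransferase that LIN28A recruits. Its probe set 1437395_at read 5.30, 5.96 and 4.62 on the wild-type arrays and 7.86, 7.74 and 7.88 on the knockout arrays. The groups are separated by 1.78, and the knockout arrays lie within 0.14 of each other. The means were 5.29 ± 0.67 and 7.83 ± 0.08 (SD, n = 3), a difference of 2.53 with a standard error of 0.331, or 5.79-fold. This is the value that picked the group.

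The wild-type spread of this probe set was wide even between the near-identical arrays 1 and 2. They differed by 0.66 for Tut4, and of 6724 genes with a mean above 5 only 115 differed by more between these 2 arrays. With arrays 1 and 2 averaged into 1 wild-type sample, the Tut4 difference was 2.70.

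The other 4 Tut4 probe sets did not measure the transcript to the same degree. Probe set 1439631_at read 2.11, 2.25 and 2.17 in wild type and 2.43, 3.14 and 2.32 in knockout, a difference of 0.45 with a standard error of 0.224. Probe set 1441545_at read 1.81, 2.27 and 2.02 against 2.28, 3.21 and 2.0, a difference of 0.46 with a standard error of 0.296. For both, knockout array 2 was highest by 0.71 or more, and only the first showed no overlap between groups, by a gap of 0.07.

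The last pair of Tut4 probe sets lay below the filter. Probe set 1456668_at read 1.49 to 2.0 in wild type and 1.96 to 2.32 in knockout, and 1441359_at read 1.68 to 1.95 and 1.53 to 2.11. Their differences were 0.34 and -0.04. In mean, 4 of 5 Tut4 probe sets were higher in knockout and 1 was lower, but 1 alone stood well above the bottom of the scale. The size of the Tut4 difference therefore rests on a single probe set. Which part of the transcript each probe set reads was not analysed here.

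**Figure D1:**
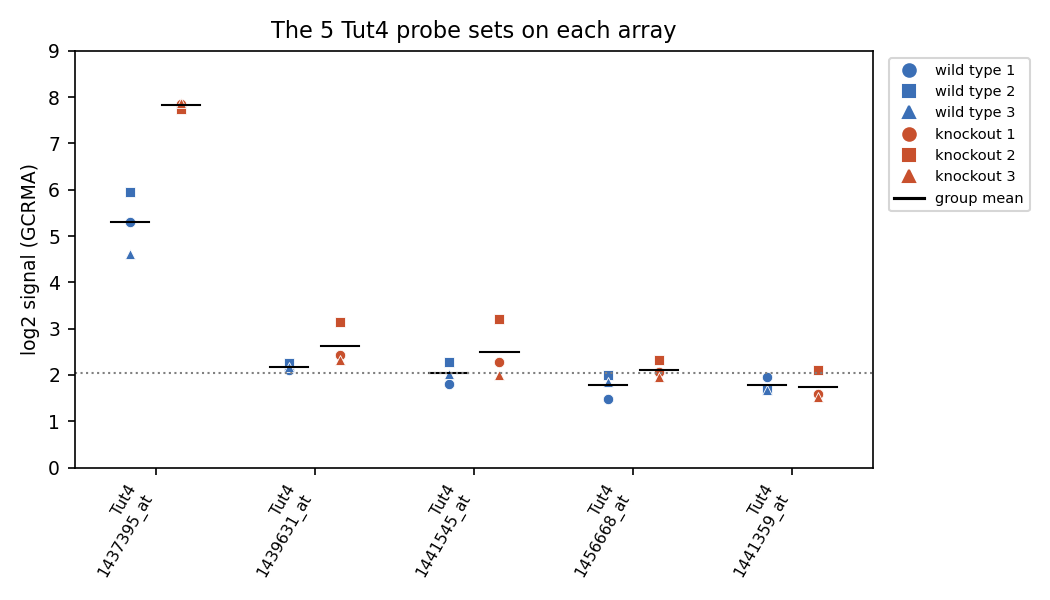
Log2 signal of each of the 5 Tut4 probe sets on the 3 wild-type (blue) and 3 knockout (red) arrays; the symbol shape gives the replicate, black lines are group means and the dotted line is the low-value filter at 2.04. Only 1437395_at stands clear of the bottom of the scale, with knockout arrays at 7.74 to 7.88 and wild-type arrays at 4.62 to 5.96.

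Tut7, formerly Zcchc6, is the close relative that shares most known substrates with TUT4. Its probe set 1433910_at read 8.52, 8.44 and 8.16 in wild type and 8.42, 8.64 and 7.97 in knockout. The second, 1441986_at, read 5.94, 5.60 and 5.88 against 5.47, 6.09 and 5.55. The groups overlapped on both, and the differences of -0.03 and -0.10 (standard errors 0.213 and 0.263) turned to 0.02 and 0.06 with quantile normalization. Tut7 thus showed no counterpart to the Tut4 values in these arrays, although differences of the size of its standard errors could not be seen.

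The transcripts of the LIN28 proteins, which bind let-7 precursors, were at the bottom of the scale. Lin28a read 1.48 to 1.95 on 1421749_at and 1.26 to 1.93 on 1437752_at. Lin28b read 1.83, 1.89 and 2.40 in wild type and 1.93, 1.65 and 1.89 in knockout. All 3 probe sets failed the low-value filter in these samples, so a difference between groups could be missed there. Dis3l2, which degrades uridylated precursors, was little better measured: 1434090_at read 2.82, 2.76 and 2.95 against 2.78, 2.93 and 2.56, and its other probe sets read 1.57 to 2.21 and 1.30 to 1.84.

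Drosha and Dgcr8 form the nuclear complex that cuts hairpins out of primary transcripts. Drosha probe set 1438505_s_at read 9.29, 9.56 and 9.46 in wild type and 9.43, 9.37 and 10.19 in knockout, and 1428656_at read 7.58, 7.59 and 7.47 against 7.46, 7.19 and 8.20. On both, knockout array 3 stood above the other 5 arrays, which lay together. The mean differences were 0.23 and 0.07 (standard errors 0.224 and 0.267), and without knockout replicate 3 they were -0.04 and -0.22. The third Drosha probe set, 1438440_at, read 1.88 to 2.45.

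Dgcr8, the RNA-binding partner of Drosha, was low on knockout array 1. Its probe set 1455311_at read 7.85, 7.51 and 7.78 in wild type and 7.05, 7.64 and 7.56 in knockout. Probe set 1435439_at read 6.48, 6.38 and 6.99 against 6.0, 6.73 and 6.56. The groups overlapped on both, with differences of -0.30 and -0.19 (standard errors 0.221 and 0.278) that became -0.11 and 0.03 without knockout replicate 1. The remaining Dgcr8 probe sets, 1422981_at and 1446169_at, lay at 2.25 to 2.76 and 1.75 to 1.96. Their groups did not overlap, in opposite directions (0.30 and -0.13), at the bottom of the scale where such gaps carry little information.

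Dicer1 encodes the cytoplasmic enzyme that cuts precursors into mature microRNAs, the step that a uridine tail blocks. Probe set 1460571_at read 6.56, 6.60 and 6.26 in wild type and 5.85, 6.17 and 5.96 in knockout. Probe set 1427941_at read 6.44, 6.42 and 6.47 against 5.27, 6.41 and 5.80. All knockout values lay below all wild-type values on both, but by only 0.09 and 0.01. The differences were -0.48 and -0.62, with standard errors of 0.224 and 0.306. They stayed below 0 under all 14 alternatives tried for each, at -0.59 to -0.33 and -0.91 to -0.34. Leaving out, averaging or weighting arrays could not change this sign, since no knockout value reached a wild-type value. Nor could the filter, the prior variance or the replicate block. Quantile normalization, which could, gave -0.33 and -0.46, and median centring gave -0.52 and -0.66. Knockout array 1 was lowest on both, and knockout array 2 sat next to the wild-type arrays on the second.

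These gaps must be read against the whole array. Of the 13 member probe sets with a mean above 5, 1 (Tut4) had all knockout values above all wild-type values, where 3.99% of all 11169 such probe sets did. The count below was 2, both of Dicer1, against 10.9% of all.

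Ago2 encodes the Argonaute protein that loads the finished microRNA and can slice its target. All 4 of its probe sets had a mean above 5, and all 4 had the same array lowest. Probe set 1455389_s_at read 8.37, 8.48 and 8.76 in wild type and 7.58, 8.46 and 8.61 in knockout. Probe set 1426366_at read 7.63, 7.63 and 7.74 against 6.65, 7.48 and 7.91. Knockout array 1 was lowest on each, while knockout arrays 2 and 3 lay in or near the wild-type range.

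The weaker Ago2 probe sets repeated this. Probe set 1455294_at read 6.61, 6.78 and 6.88 in wild type and 5.93, 6.65 and 6.49 in knockout. Probe set 1435636_at read 5.95, 6.22 and 6.49 against 4.73, 6.25 and 6.40. Knockout array 1 fell short of the lowest of the other arrays by 0.56 to 1.22 over the 4 probe sets. The group differences of -0.43 to -0.32 had standard errors of 0.250 to 0.437, and without knockout replicate 1 they were 0.00, 0.03, -0.19 and 0.11. Most of the Ago2 difference came from this 1 array.

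**Figure D2:**
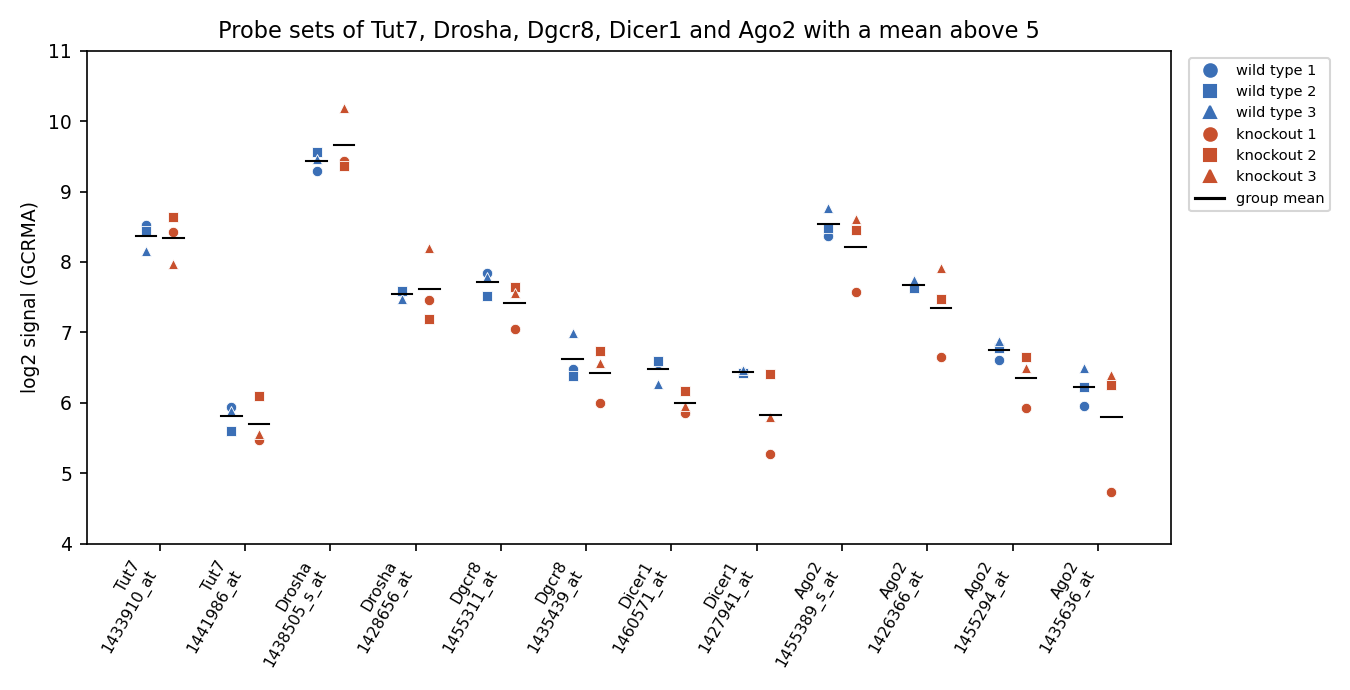
Log2 signal of the 12 probe sets of Tut7, Drosha, Dgcr8, Dicer1 and Ago2 with a mean above 5, by array, with group means as black lines; the axis starts at 4. Knockout array 1 (red circle) is the lowest point for all 4 Ago2 probe sets and for both of Dicer1 and of Dgcr8, and knockout array 3 (red triangle) is the highest for Drosha.

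Knockout array 1 was the lowest of the 6 arrays for 9 of the 13 well measured member probe sets: 4 of Ago2, 2 of Dicer1, 2 of Dgcr8 and 1 of Tut7. Over all 11169 probe sets with a mean above 5 it was lowest for 28.3%, and knockout array 3 for 25.5%. The members share genes and so are not independent. Tut4 did not follow, since knockout array 1 read 7.86 there. The signal difference between 3′ and 5′ control probe sets, a sign of RNA integrity, was 1.27 for actin and 0.84 for Gapdh on knockout array 1. On the other arrays it was 1.26 to 1.75 and 0.74 to 1.34. The highest values were on knockout arrays 2 and 3, at 1.69 and 1.75 for actin and 1.30 and 1.34 for Gapdh. The part of RNA integrity in the low values was not tested. The mean level of the 7 myeloid markers was 6.10 on that array and 5.37 to 5.75 on the others. Lyz2, Csf1r, Adgre1 and Cd68 were highest there, at 8.50, 9.20, 4.92 and 4.06, whereas S100a8 read 11.12 against 10.97 to 11.30 on the others. Itgam and Elane lay at 1.90 to 2.56 on all arrays. The part of myeloid cells in the low values was not tested.

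**Figure D3:**
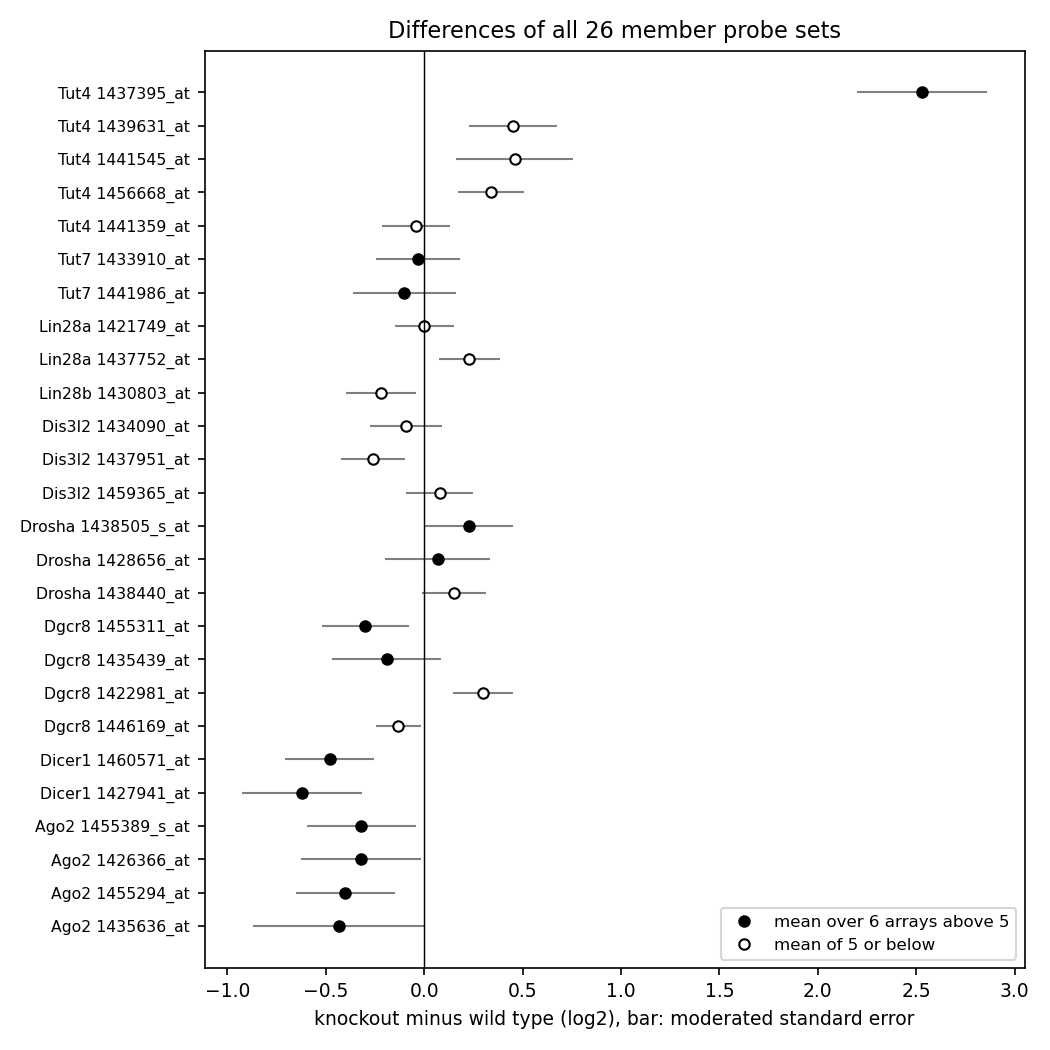
Knockout minus wild type on the log2 scale for all 26 member probe sets, with the moderated standard error as bar; filled points have a mean above 5 over the 6 arrays, open points a lower one. Tut4 1437395_at stands at 2.53, and the other 12 filled points lie between -0.62 and 0.23.

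Tut4 levels were also set beside markers of other cells, since in bulk RNA a higher share of a cell type and more transcript per cell cannot be told apart. The mean of 6 B cell markers was 4.83 to 5.41 on the wild-type arrays and 5.91, 6.12 and 5.02 on knockout arrays 1, 2 and 3; all 6 had higher means in knockout, Cd79b, Ms4a1 and Ighm had a mean above 5, Blnk read 3.13, 3.05 and 3.69 in wild type and 4.44, 5.19 and 3.45 in knockout, and Cd79a and Pax5 stayed under 3 on every array. Knockout array 3, whose mean of these markers lay inside the wild-type range, read 7.88 for Tut4, like the other knockout arrays. By single marker, this array lay below the wild-type range for Cd79b (4.74) and Ms4a1 (5.01). It lay above that range for Cd79a (2.52) and Pax5 (2.63), and inside it for Blnk and Ighm. The mean of 9 T cell markers was 10.04 to 10.72 in wild type and 9.77 to 10.49 in knockout, with 2 of 9 higher in knockout. The 4 natural killer and cytotoxic markers averaged 4.57 to 4.75 and 4.69 to 5.31, with Ncr1 under 2 everywhere. Only 1 of the 4, Gzma, had a mean above 5, and 2 of 4 had higher means in knockout. Gzmb read 2.14 to 4.33 over the arrays (difference 0.37) and Prf1 2.24 to 2.71 (difference -0.14). Among them Gzma, the granzyme A gene, read 11.47, 11.30 and 12.47 in wild type and 12.96, 12.46 and 12.94 in knockout (difference 1.04, adjusted p = 0.628 by limma), high on all knockout arrays and on wild-type array 3. The 4 erythroid markers averaged 6.96 to 7.06 and 6.49 to 7.56, and the 5 stromal and endothelial ones 2.53 to 2.77 and 2.52 to 2.70. The part of these cells in the Tut4 values was not tested.

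Tut4 lies on chromosome 4, and Sh2b3 on another chromosome. Of the 5 genes on each side of Tut4 in the order of the GRCm38.p6 RefSeq table, 7 of 10 passed the filter and 0 passed limma's test over all genes. Prpf38a, a splicing factor and the next gene after Tut4, read 8.77, 8.46 and 9.46 in wild type and 9.22, 9.25 and 9.16 in knockout (difference 0.31, adjusted p = 0.750 by limma). Coa7 and Cc2d1b had lower means in knockout with no overlap between groups, at -0.52 and -0.39 (adjusted p = 0.663 for each by limma). Over all genes, 8.30% had all knockout values below all wild-type values. Among probe sets with a mean above 5, as both of these had, the share was 10.9%. Orc1, a subunit of the origin recognition complex, stood at -0.24, Btf3l4 at -0.02, Zyg11b at -0.06 and Echdc2 at 0.11. Gpx7, Zyg11a and Zfyve9 lay below the filter.

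The transcripts whose profile over the 6 arrays was most like that of Tut4 1437395_at were Atpif1 (Pearson r = 0.995), Rapgef3 (0.975), Utp3 (0.964), Lamtor5 (0.961) and Vamp5 (0.957). The most opposite were Bdh1 (r = -0.994), Shprh (-0.991), Septin2 (-0.988), Clip1 (-0.986) and Uso1 (-0.986). These are the extremes of 6724 genes with a mean above 5, found by searching all of them, and with 2 groups of 3 the group gap sets most of each coefficient. Their own group differences were mostly small: 0.30 for Atpif1, 0.98 for Rapgef3, -0.41 for Bdh1 and -0.89 for Clip1.

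Other genes of the pathway were taken from lists written from general knowledge. In each list, the count at an unadjusted p under 0.05 by limma is to be read beside 981 of all 12564 genes. Among 9 tested terminal nucleotidyltransferases and poly(A) polymerases other than TUT4 and TUT7, limma called 0, with 0 at an unadjusted p under 0.05. In knockout 5 means were higher and 4 lower, for a median difference of 0.15, beside -0.01 for all genes. Tent5c, a poly(A) polymerase active in B lineage and plasma cells, read 7.89, 7.80 and 7.63 in wild type and 8.25, 9.53 and 7.91 in knockout (difference 0.79, standard error 0.378, adjusted p = 0.662 by limma). Its highest array, knockout 2, also had the highest mean of B cell markers, whose part in the Tent5c values was not tested. Papola stood at 0.33, Tut1, which tails U6 RNA, at -0.43, and Tent4b at -0.20.

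Enzymes of RNA decay downstream of tailing had 0 of 29 called by limma and 3 at an unadjusted p under 0.05, where 981 of all 12564 genes were. Exosc10, the nuclear exosome nuclease, read 8.07, 8.11 and 7.94 against 7.71, 7.28 and 7.62 (difference -0.50, standard error 0.179, adjusted p = 0.635 by limma). The deadenylase Parn stood at -0.59, the decapping activator Dcp1a at -0.57 and Lsm4, a subunit of the ring that binds uridine tails, at 0.26. In this list 13 means were higher and 16 lower, with a median of -0.03.

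Cofactors of microRNA processing had 0 of 18 called by limma and 1 at an unadjusted p under 0.05, Ncbp1, a cap-binding subunit, at -0.38 (adjusted p = 0.639 by limma). Xpo5, which exports precursors from the nucleus, read 7.28, 6.86 and 7.09 against 5.96, 6.76 and 6.68, with knockout array 1 lowest (difference -0.61). Trim25, which helps TUT4 in let-7 tailing, stood at -0.30, and Tsn, a subunit of a nuclease that clears passenger strands, at -0.25. In this list 5 of 18 genes had all knockout values below all wild-type values, where 8.30% of all genes did. For 0 of 18 they lay above, where 5.49% of all genes did. Among all probe sets with a mean above 5, as most of these genes had, the shares were 10.9% below and 3.99% above. Knockout array 1 was lowest for 9 of the 18.

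Argonaute partners and silencing factors had 0 of 21 called by limma and 1 at an unadjusted p under 0.05, Tnrc6a, the scaffold that Argonautes bind, at -0.38 (adjusted p = 0.635 by limma). Means were higher in knockout for 3 and lower for 18, with a median of -0.14. Over all genes 48.1% were higher and the median was -0.01. Genes with more signal leaned lower as a whole, so this background is not a like one. With the filter at the 60th percentile, which 20 genes of this list passed, the median of all genes was -0.07. Knockout array 1 was lowest for 9 of the 21. Pan2 and Cnot8, both deadenylase subunits, stood at -0.49 and -0.28, and Limd1 at -0.25.

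Transcripts that let-7 is known to repress split evenly in direction, 7 each way of 14 tested, with 0 called by limma, 2 at an unadjusted p under 0.05 and a median of -0.03. Mycn read 13.33, 13.42 and 12.28 in wild type and 11.86, 12.03 and 12.60 in knockout (difference -0.85, adjusted p = 0.635 by limma), and the groups overlapped. Cdc25a, a phosphatase that drives entry into S phase, stood at -0.50 with the same adjusted p by limma, Cdk6 at -0.26 and Rictor at 0.27. Hmga2, a classical target named after its values were seen, read 1.54 to 1.79, at the bottom of the scale.

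Igf2bp3, chosen after its values were seen, encodes an RNA-binding protein of the fetal programme and varied widely between arrays. It read 2.47, 2.17 and 7.25 in wild type and 4.97, 4.18 and 2.82 in knockout. The high array was wild-type 3, which was also the lowest for Tut4. The difference between groups was 0.03 with a standard error of 1.26, so the variation was within groups. Igf2bp1 and Arid3a, also chosen after their values were seen, stayed at 2.12 to 2.46 and 2.75 to 3.12.

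**Figure D4:**
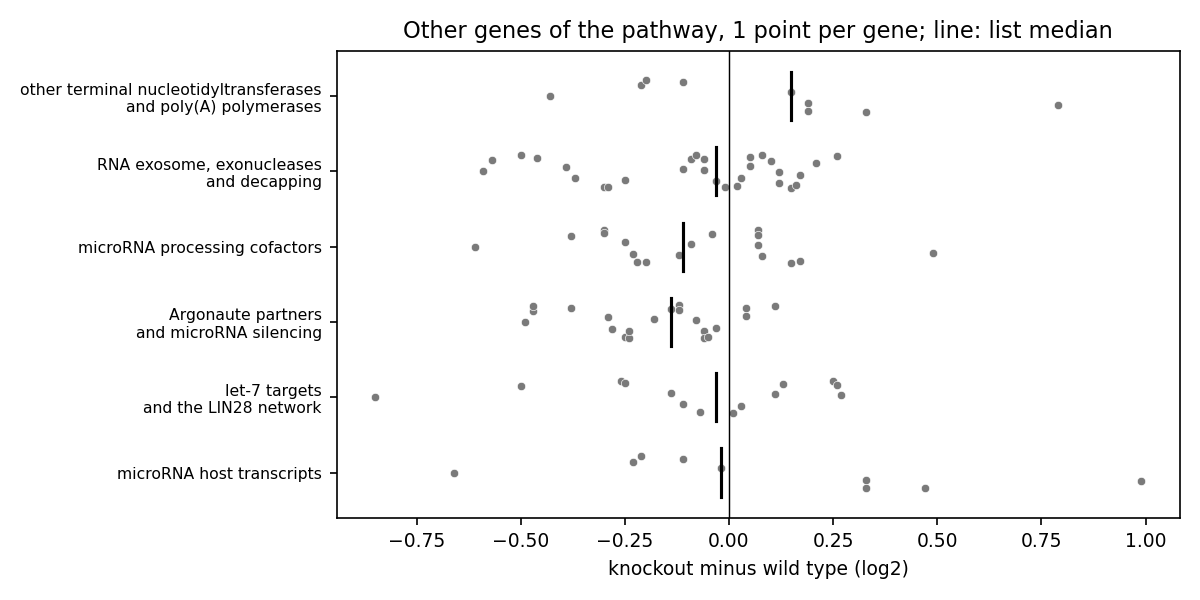
Knockout minus wild type (log2) for each tested gene of the 6 pathway lists, 1 point per gene, spread vertically only to separate points; the black line is the list median. The medians lie between -0.14 and 0.15, and no gene passed limma's test over all genes.

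Transcripts that carry microRNAs had 0 of 9 called by limma and 2 at an unadjusted p under 0.05. Smc4, a condensin subunit whose gene holds Mir15b and Mir16-2, read 11.80, 11.99 and 11.93 in wild type and 12.18, 12.29 and 12.25 in knockout (difference 0.33, standard error 0.0918, adjusted p = 0.628 by limma). Dleu2, a noncoding RNA that holds Mir15a and Mir16-1, read 5.57, 5.27 and 6.53 against 6.49, 7.21 and 6.63 (difference 0.99, standard error 0.366, adjusted p = 0.635 by limma). The groups were apart for Smc4 and overlapped for Dleu2, through wild-type array 3. Mir22hg stood at -0.66 and Meg3 at 0.47.

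The microRNAs of Smc4 and Dleu2 belong to 1 seed family, shown because both hosts stood at the top of the list by p. Capitals mark bases 2 to 8, in RefSeq sequences on GRCm38.p6.
mmu-miR-15a-5p: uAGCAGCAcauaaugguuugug
mmu-miR-15b-5p: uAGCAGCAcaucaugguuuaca
mmu-miR-16-5p: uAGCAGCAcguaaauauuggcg
A host transcript also has its own regulation, and mature levels of these microRNAs were not measured.

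Among probe sets annotated directly to microRNA genes, that of Mir142, a microRNA of blood cells, was chosen after its values were seen. It read 5.27, 5.06 and 4.57 in wild type and 4.33, 4.54 and 4.13 in knockout, a difference of -0.63. The groups did not overlap, by 0.03. Mir155hg, the host of an activation-induced microRNA and likewise chosen after its values were seen, read 1.80 to 2.19, at the bottom of the scale.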

How the data were processed

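The authors deposited log2 values for 45101 probe sets on 6 arrays. Per the submitters' processing notes they came from GCRMA, a method for background correction, normalization and summary of probes, of unstated version. Base 2 was taken from the range of values. Amplification from 10 ng of RNA can compress differences. Names came from the platform annotation, updated by gene identifier to RefSeq (GRCm38.p6); 34958 probe sets had 1 symbol, 932 several and 9211 none. All member probe sets had 1.

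Values were used as deposited. limma 3.58.1 in R 4.3.3 (lmFit, eBayes with trend) was fitted over probe sets and over genes (1 probe set per gene, the one with the highest mean), above the 40th percentile of means, 2.04, two-sided, with Benjamini-Hochberg adjustment and a threshold of 0.05. The fit was checked on simulated arrays, with noise independent between arrays and planted differences larger than any given here. That check does not tell whether differences of the sizes given here would be found. Members below the filter took their standard error from the unfiltered fit. The number of arrays limits the precision.

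The members and lists were chosen with earlier results of these data known. Named genes are all member probe sets, up to 4 genes per list by p, the 5 neighbours on each side, the 5 most and least similar genes, and markers; other names are said to be chosen after their values were seen. Alternatives were the filter, prior variance, normalization, array weights, the replicate block, probe set choice, each array left out, and wild-type arrays 1 and 2 averaged. A pseudocount was not varied, as the values are logarithms.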

Additional observations from a re-analysis of the deposited data

How the results depend on the processing

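The difference of Tut4 1437395_at stayed within 1 SD of its main value under all 14 alternatives, at 2.20 to 2.87 with each array left out. For most alternatives this was fixed in advance. The filter, the prior variance and the replicate block cannot change a mean difference. Leaving out 1 of 3 arrays moves a group mean by less than 1 SD of that group. Quantile normalization, median centring and array weights could have moved it further, and gave 2.64, 2.49 and 2.37. Over all 26 member probe sets 354 of 356 alternative values stayed within 1 SD, with the same limit. The exceptions were Dgcr8 1446169_at with quantile normalization and median centring, at -0.17 each. The number of Tut4 probe sets counted as measured was 3 above the filter and 1 above a mean of 3, 4 or 5. Calls over all genes, 0 higher and 0 lower, became 1 lower with array weights. With each array left out they ranged from 0 to 20 higher and 0 to 34 lower for genes, and from 0 to 19 higher and 0 to 38 lower for probe sets, most of them when wild-type array 3 was dropped and only the near-identical pair remained. Of the members and pathway genes, Tut4 alone was called in any alternative, without wild-type replicate 3 (limma adjusted p = 0.0192); having been picked for its difference, it gains nothing from this. The 6 pathway lists had 0 genes called in all 16 alternatives. The replicate block left the calls at 0 and Tut4 at 2.53; same-numbered arrays share only a number, with correlations of their deviations of -0.04, 0.00 and -0.06. Where both groups lie near 2, a difference could be missed.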
